A study of Mus musculus with 8 samples.

Results

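CD antigens are cell surface proteins that are numbered by the antibodies that recognise them, and many are used to tell leukocyte classes apart. The ascending aorta RNA table analysed here held 16 genes with a mouse symbol made of Cd and a number, among 1329 genes in all. The rule that picked them used only the symbol, but it was set with earlier results of these data known. Cd2, Cd6, Cd28, Cd55 and Cd74 were not counted. The gene name table lists 95 symbols of this form beside those 5. The 16 genes included the T cell receptor chains Cd3d, Cd3e and Cd3g and the co-receptors Cd4 and Cd8b1. Cd5 and Cd69 were listed with these under the heading of T and NK cell genes. The others were Cd72 of B cells, Cd101 and Cd300lf of myeloid cells, the co-stimulators Cd40 and Cd80, the glycoproteins Cd52 and Cd84, and the tetraspanins Cd53 and Cd82.

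All libraries came from mice homozygous for Fbn1 mgR, an allele with low expression of the microfibril protein fibrillin-1 that serves as a model of Marfan syndrome, so no library from a healthy aorta entered the comparison. In 4 libraries the mice had been given DT-061, a small molecule that activates protein phosphatase 2A, at 5 mg/kg by mouth, 2 times a day for 4 weeks, beginning at an age of 5 weeks. The mice of the other 4 had been given the vehicle solution on the same schedule. No label ties each library to its own mouse, so the p-values measure the spread between libraries, which may in part be technical. RNA was taken from whole tissue, so fewer cells of a type and less RNA per cell cannot be told apart.

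A resting vessel wall holds mostly smooth muscle, fibroblasts and endothelium, and leukocytes enter it during inflammation. T cells carry the CD3 chains, which pass on the signal of the T cell receptor, together with CD4 on helper cells or CD8 on cytotoxic cells. B7 proteins such as CD80 on antigen-presenting cells give T cells their second signal, and CD40 receives help from T cells in return. Tetraspanins such as CD53 and CD82 organise other membrane proteins into domains.

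Cd3g and Cd3d lie head to head on GRCm38 chromosome 9, with start sites 1355 bases apart (44980431 and 44981786) on opposite strands, and Cd3e ends the same stretch of 40056 bases. Upstream sequences are shown because the genes they precede were lower together in the DT-061 libraries. They are the 200 bases before the start site in the RefSeq promoter table (GRCm38.p6). That table matched 11 of the 16 genes, and the 5 given are those whose window lay at most 30 bases inside the gene's span in both RefSeq and GENCODE. Capitals mark matches, on either strand, to the Ets core AGGAAG, the Runx core TGTGGT, the E-box CACCTG or the GATA motif AGATAA. No 2 matches overlapped.
Cd3g (chr9:44980432-44980631, minus strand): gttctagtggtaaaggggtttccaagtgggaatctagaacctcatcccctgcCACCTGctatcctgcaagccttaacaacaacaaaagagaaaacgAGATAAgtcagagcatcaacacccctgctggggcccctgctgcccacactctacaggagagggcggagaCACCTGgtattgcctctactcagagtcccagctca
Cd3d (chr9:44981586-44981785, plus strand): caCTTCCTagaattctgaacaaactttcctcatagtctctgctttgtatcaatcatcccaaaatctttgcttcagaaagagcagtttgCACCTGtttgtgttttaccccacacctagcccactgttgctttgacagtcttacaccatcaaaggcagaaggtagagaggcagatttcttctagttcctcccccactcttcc
Cd53 (chr3:106790150-106790349, minus strand): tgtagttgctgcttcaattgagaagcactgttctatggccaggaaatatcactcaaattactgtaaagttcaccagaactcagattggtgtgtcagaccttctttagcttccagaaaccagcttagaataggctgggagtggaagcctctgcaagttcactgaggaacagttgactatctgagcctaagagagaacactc
Cd84 (chr1:171839497-171839696, plus strand): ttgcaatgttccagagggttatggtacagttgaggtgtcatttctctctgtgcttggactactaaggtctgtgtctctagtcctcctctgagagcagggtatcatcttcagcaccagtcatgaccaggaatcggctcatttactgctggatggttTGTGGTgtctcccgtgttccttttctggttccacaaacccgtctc
Cd101 (chr3:101029554-101029753, minus strand): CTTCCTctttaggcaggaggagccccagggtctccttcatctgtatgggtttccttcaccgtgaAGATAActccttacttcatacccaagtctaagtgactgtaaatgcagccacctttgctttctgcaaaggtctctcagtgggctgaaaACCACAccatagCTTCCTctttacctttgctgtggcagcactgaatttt
Among the 5 windows, Cd101 and Cd3d held an Ets match, against 24.7% of all 32851 promoter windows of the same length. A Runx match was found before Cd101 and Cd84 (11.2% of all windows), an E-box before Cd3d and Cd3g (13.9%) and a GATA match before Cd101 and Cd3g (7.80%). No TATAAA and no match to the NF-kB consensus occurred in the 5, against 9.96% and 6.07% of all windows. The window of Cd53 held none of these letters. Over the windows of all 11 genes, of which Cd82 has several, 7 genes had an Ets match, 4 an E-box, 3 a Runx match, 2 a GATA match and 1 a TATAAA. Of the divergent pair, Cd3g had 2 E-box matches and Cd3d had 1. These matches describe the sequence only.

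Genes of T cells, B cells, myeloid cells and leukocytes at large were lower in the DT-061 aortas. Of the 16 CD genes, 15 fell by limma at an adjusted p under 0.05 and none rose, and Cd3e did not pass (limma adjusted p = 0.053). Of all 1329 genes 65.0% fell and 30.4% rose. The authors had selected the table's genes on this comparison, so the calls are no independent evidence that these genes differ. The median log2 change was -1.16 for the CD genes, -0.58 for all 1329 genes and -0.87 for the 894 table genes lower with DT-061. A change is the difference in mean log2(FPKM + 1), with vehicle subtracted from DT-061. The ratio of group mean FPKM of the CD genes was 1.49-fold to 10.2-fold lower. Its median was 4.85-fold, against 3.08-fold for those 894 genes. In 8 of the 16 genes every DT-061 value lay below every vehicle value, against 48.2% of the table. No filter on low values was applied, and 13 of the 16 had a mean of at least 1 FPKM, all but Cd69, Cd101 and Cd300lf.

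Vehicle libraries 1 and 4 stood apart from the rest of their group. Vehicle library 1 was the highest vehicle library in all 16 CD genes, against 74.9% of the 894 table genes that were lower with DT-061. Vehicle library 4 was the lowest vehicle library in 15 of the 16, with Cd80 the exception, against 75.5% of those 894 genes. Without vehicle library 4, all 16 CD genes had DT-061 values below all vehicle values (65.9% of the table). All 16 fell in that fit, against 881 of the 1329 table genes. DT-061 library 3 was the lowest of its group in 12 of the 16, against 70.8% of the 894 genes. Without it only 7 of the 16 fell, and the table genes that fell dropped from 864 to 652. The CD gene count was 9 without DT-061 library 1 or without vehicle library 3, where 681 and 688 table genes fell. The libraries held 14100000 to 22200000 fragments, to 3 significant digits, and vehicle library 4 had the lowest of these totals.

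The scaling of the libraries changed the counts. With every library rescaled to the same median, 9 of the 16 CD genes fell, and the table split into 434 genes higher and 301 lower, against 404 and 864 as deposited. With quantile normalization 3 CD genes fell (Cd52, Cd53 and Cd72), and the split was 394 against 210. These scalings moved the median change of all genes by 0.68 and 0.56, and the CD gene median became -0.72 and -0.33. Both scalings were computed from the selected genes alone, more of which fell than rose as deposited. Equal medians or distributions in such a table can take out part of the group difference itself. How much they took out was not tested.

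**Figure D1:**
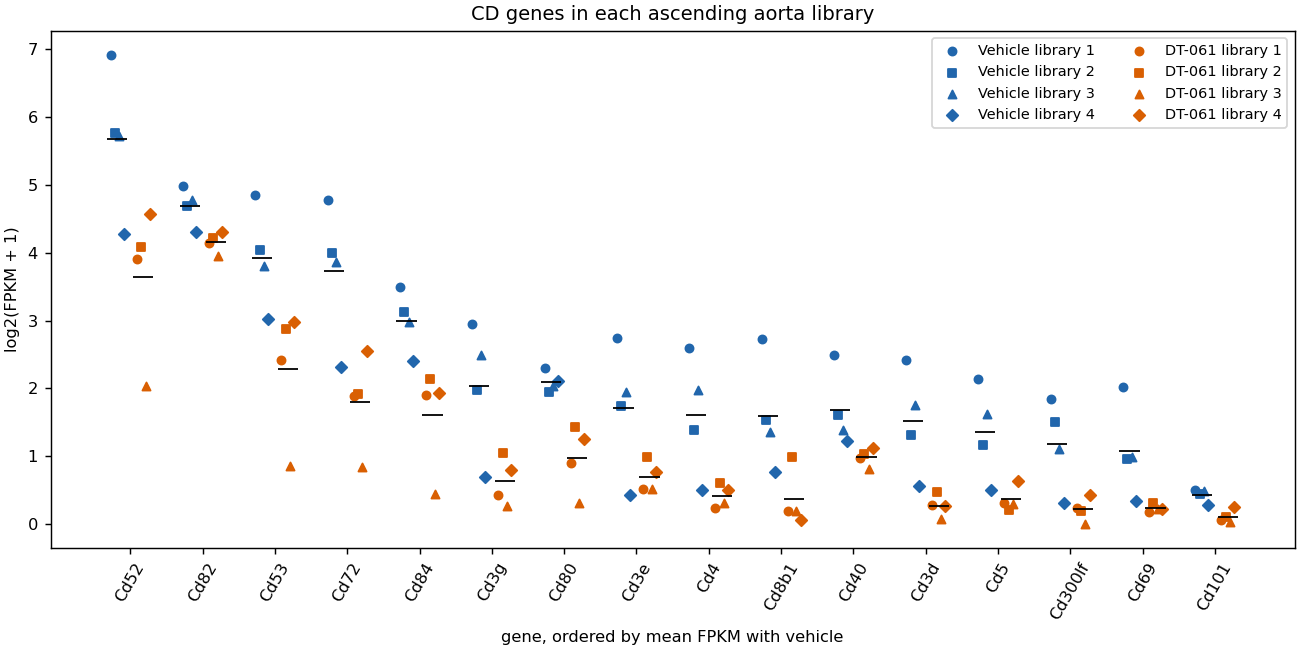
Expression of the 16 CD genes as log2(FPKM + 1) in each library; blue marks are vehicle and orange marks DT-061, the marker shape gives the library number and black lines are group means. Vehicle library 1 is the highest blue mark for every gene, and vehicle library 4 sits among or next to the orange marks for most genes but not for Cd80.

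The 3 CD3 chains, which pass on the T cell receptor signal, were 4.40-fold to 10.2-fold lower by group means. Cd3d, the delta chain (ENSMUSG00000032094, GRCm38 chromosome 9, 44981786 to 44987339), had 0.211, 0.387, 0.0521 and 0.205 FPKM in DT-061 libraries 1 to 4 and 4.34, 1.50, 2.38 and 0.482 in vehicle libraries 1 to 4. The groups did not overlap, and the mean was 10.2-fold lower, the widest ratio of the 16 genes (0.214 ± 0.137 against 2.18 ± 1.64 FPKM, SD, n = 4). The log2 change was -1.24 ± 0.36 (SE; limma adjusted p = 0.018).

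Cd3g, the gamma chain (ENSMUSG00000002033, chromosome 9, 44969572 to 44980431), had 0.340, 1.06, 0.202 and 0.731 FPKM with DT-061 and 6.76, 2.95, 4.64 and 0.623 with vehicle. Its groups overlapped through vehicle library 4, which lay below DT-061 libraries 2 and 4. The log2 change was -1.40 ± 0.47 (limma adjusted p = 0.024). Cd3e, the epsilon chain (ENSMUSG00000032093, chromosome 9, 44998740 to 45009627), had 0.436, 0.980, 0.432 and 0.710 FPKM with DT-061 and 5.68, 2.35, 2.87 and 0.345 with vehicle. Vehicle library 4 held less Cd3e than any DT-061 library, and the log2 change was -1.02 ± 0.44. Without that library Cd3e changed by -1.45 (limma adjusted p = 0.00477).

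The FPKM steps gave whole fragment numbers for 11 of the 16 genes, each within 0.0088 of a whole number in all 8 libraries. The length of each gene was fitted to reach this, as the shortest one that gave whole numbers. The fragment numbers are thus the smallest that match the values, and multiples of them were not tested. Cd3d rested on 4, 8, 1 and 4 fragments with DT-061 and on 93, 44, 55 and 9 with vehicle. Summed over Cd3d, Cd3e and Cd3g, DT-061 libraries 1 to 4 had 18, 47, 13 and 30 fragments and vehicle libraries 1 to 4 had 337, 186, 210 and 25. In fragments per 1000000 of the library this was 0.897 to 3.01 with DT-061. In vehicle libraries 1 to 3 it was 20.8 (95% exact Poisson interval 18.6 to 23.1), 8.38 (7.22 to 9.67) and 12.0 (10.4 to 13.7), and in vehicle library 4 it was 1.77 (1.15 to 2.62). The intervals cover counting error only and take the fragment numbers as given. Vehicle library 4 thus lay within the range of the DT-061 libraries for the CD3 complex, and the other vehicle libraries lay above it by more than counting error.

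The co-receptors were also lower. Cd4 (ENSMUSG00000023274, chromosome 6, 124864692 to 124888221), the co-receptor of helper T cells, had 0.179, 0.515, 0.244 and 0.415 FPKM with DT-061 and 5.05, 1.61, 2.95 and 0.410 with vehicle. Its log2 change was -1.20 ± 0.41 (limma adjusted p = 0.025), and the groups overlapped through vehicle library 4 alone. Cd8b1 (ENSMUSG00000053044, chromosome 6, 71322788 to 71337494), the beta chain of the cytotoxic T cell co-receptor, had 0.147, 0.992, 0.146 and 0.0479 FPKM with DT-061 and 5.62, 1.91, 1.57 and 0.699 with vehicle. DT-061 library 2 stood above the rest of its group, with 22 fragments where the others had 1 to 3. The log2 change of Cd8b1 was -1.23 ± 0.42 (limma adjusted p = 0.024).

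Cd5 and Cd69 complete the T and NK cell genes. Cd5, a scavenger-receptor-type inhibitor of T cell receptor signalling (ENSMUSG00000024669, chromosome 19, 10717116 to 10739002), had 0.236, 0.155, 0.233 and 0.558 FPKM with DT-061 and 3.40, 1.24, 2.07 and 0.411 with vehicle. It fell by 0.99 ± 0.33 (limma adjusted p = 0.024), and vehicle library 4 lay below DT-061 library 4. Cd69, a lectin-like protein induced early in lymphocyte activation (ENSMUSG00000030156, chromosome 6, 129267325 to 129275436), had 0.129, 0.237, 0.170 and 0.168 FPKM with DT-061 and 3.05, 0.945, 0.989 and 0.262 with vehicle. Its groups did not overlap, though DT-061 library 2 and vehicle library 4 rested on 6 fragments each. Cd69 fell by 0.84 ± 0.31 (limma adjusted p = 0.031).

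The T and NK cell genes together had a median ratio of 7.35-fold lower, and 6 of 7 fell. The median was 3.08-fold for the 894 table genes lower with DT-061, and 65.0% of all 1329 genes fell. Several of the T and NK cell gene calls were lost when 1 library was left out. Cd3g and Cd4 did not pass when DT-061 library 1, DT-061 library 3 or vehicle library 3 was left out (limma adjusted p up to 0.058 and 0.0605). Cd8b1 did not pass when DT-061 library 1, 3 or 4 was left out (up to 0.0557), nor Cd5 when vehicle library 3 or one of DT-061 libraries 1, 2 and 3 was (up to 0.0559). Cd69 did not pass with any 1 DT-061 library, or vehicle library 2 or 3, left out (up to 0.0644). Cd3d passed without each library in turn.

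Among glycoproteins shared by many leukocytes, Cd52 had the largest log2 change of the 16 genes. Cd52, a short lipid-anchored glycoprotein of lymphocytes and monocytes (ENSMUSG00000000682, chromosome 4, 134082448 to 134095082), had 14.1, 15.9, 3.08 and 22.9 FPKM with DT-061 and 120.2, 53.7, 51.9 and 18.3 with vehicle. DT-061 library 3 was lowest by far, and vehicle library 4 lay below DT-061 library 4. The change was -2.02 ± 0.68 (limma adjusted p = 0.024), and Cd52 did not pass without DT-061 library 3 or without vehicle library 1, 2 or 3 (up to 0.0525). Cd84, an adhesion receptor of the SLAM family (ENSMUSG00000038147, chromosome 1, 171839697 to 171890718), had 2.74, 3.41, 0.361 and 2.83 FPKM with DT-061 and 10.3, 7.70, 6.87 and 4.31 with vehicle. Its groups did not overlap, and it fell by 1.39 ± 0.40 (limma adjusted p = 0.019).

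The tetraspanins differed from each other in size of change. Cd53, a tetraspanin of leukocytes (ENSMUSG00000040747, chromosome 3, 106759921 to 106790149), had 4.32, 6.37, 0.811 and 6.86 FPKM with DT-061 and 27.8, 15.4, 12.9 and 7.15 with vehicle. The groups did not overlap, and vehicle library 4 was just above DT-061 library 4. Cd53 fell by 1.65 ± 0.54 (limma adjusted p = 0.023) but did not pass without vehicle library 1 or 2 (up to 0.0512). Cd82, a tetraspanin that many tissues express (ENSMUSG00000027215, chromosome 2, 93419111 to 93463140), had 16.8, 17.7, 14.5 and 18.7 FPKM with DT-061 and 30.7, 24.8, 26.4 and 18.8 with vehicle. The groups only just did not overlap, and the mean was 1.49-fold lower, the narrowest ratio of the 16. Cd82 fell by 0.53 ± 0.15 (limma adjusted p = 0.018), but with median rescaling of the libraries it turned to higher, at 0.28.

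The B cell gene Cd72 had the second largest log2 change. Cd72, an inhibitory co-receptor of B cells (ENSMUSG00000028459, chromosome 4, 43446462 to 43454628), had 2.70, 2.77, 0.800 and 4.87 FPKM with DT-061 and 26.6, 14.9, 13.5 and 3.98 with vehicle. It was 5.30-fold lower and fell by 1.94 ± 0.55 (limma adjusted p = 0.018), with an overlap between vehicle library 4 and DT-061 library 4.

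The co-stimulators gave 2 different pictures of vehicle library 4. Cd80, the B7 ligand of antigen-presenting cells (ENSMUSG00000075122, chromosome 16, 38455561 to 38496335), had 0.860, 1.69, 0.243 and 1.40 FPKM with DT-061 and 3.92, 2.86, 3.10 and 3.33 with vehicle. Vehicle library 4 was the second highest of its group here, with 80 fragments against 6 to 45 in the DT-061 libraries. Cd80 fell by 1.12 ± 0.26 (limma adjusted p = 0.016) and had the lowest adjusted p of the 16 genes. Cd40, the receptor through which T cells activate antigen-presenting cells (ENSMUSG00000017652, chromosome 2, 165055627 to 165072948), had 0.956, 1.05, 0.761 and 1.18 FPKM with DT-061 and 4.66, 2.04, 1.61 and 1.33 with vehicle. The groups did not overlap, and vehicle library 1 stood well above the other vehicle libraries. Cd40 fell by 0.69 ± 0.28 (limma adjusted p = 0.043), and it did not pass with any 1 DT-061 library, or vehicle library 2 or 3, left out (up to 0.092). With quantile normalization Cd40 turned to higher, at 0.24.

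The myeloid genes were scarce. Cd300lf, an inhibitory lipid-binding receptor of myeloid cells (ENSMUSG00000047798, chromosome 11, 115116214 to 115133992), had 0.177, 0.147, 0 and 0.346 FPKM with DT-061 and 2.58, 1.83, 1.15 and 0.234 with vehicle. The 0 in DT-061 library 3 allows up to 3 fragments, or 0.0526 FPKM. Cd300lf fell by 0.97 ± 0.31 (limma adjusted p = 0.022) and did not pass without DT-061 library 3 or vehicle library 2 (up to 0.0511). Cd101, an inhibitory protein of the immunoglobulin superfamily (ENSMUSG00000086564, chromosome 3, 100993529 to 101029556), had 0.0422, 0.0776, 0.0209 and 0.185 FPKM with DT-061 and 0.412, 0.355, 0.399 and 0.215 with vehicle. Those values came from 1 to 9 and 10 to 26 fragments, and the groups did not overlap, with 9 and 10 fragments in the nearest libraries. Cd101 fell by 0.31 ± 0.08 (limma adjusted p = 0.017), a change that the added 1 in log2(FPKM + 1) compresses, since it was 4.24-fold lower by group means, and with quantile normalization it turned to higher, at 0.12.

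**Figure D2:**
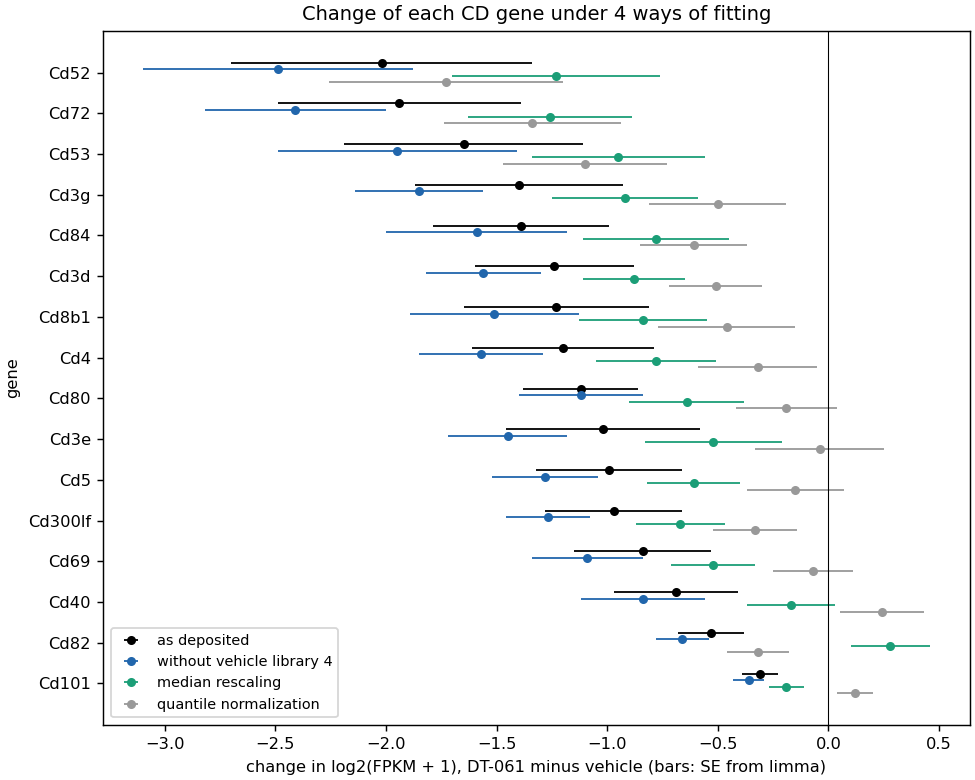
Change in log2(FPKM + 1), DT-061 minus vehicle, of each CD gene with its limma SE, from the deposited values, without vehicle library 4, and after 2 rescalings of the table. All 16 changes lie below 0 as deposited; Cd82 lies above 0 with the median rescaling, and Cd40 and Cd101 do with quantile normalization.

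The place of vehicle library 4 varied between genes. On the log2(FPKM + 1) scale, with the DT-061 mean at 0% and the mean of vehicle libraries 1 to 3 at 100%, it lay at a median of 22.0% for the 16 CD genes and 37.5% for the 894 table genes lower with DT-061. For the 7 T and NK cell genes it lay between -18.8% (Cd3e) and 26.5% (Cd8b1). Cd300lf, Cd72, Cd82, Cd52 and Cd40 lay in or near that range, at 6.98%, 21.3%, 22.7%, 25.0% and 27.6%. Cd53, Cd101 and Cd84 stood at 38.3%, 46.8% and 50.4%, and Cd80 at 102%. Low places in this library were thus not limited to the T cell genes, and Cd80 lay near the mean of the other vehicle libraries. The lower quartile of the 894 table genes was 19.7%, so low places were common among them too. With 1 library this has no test.

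**Figure D3:**
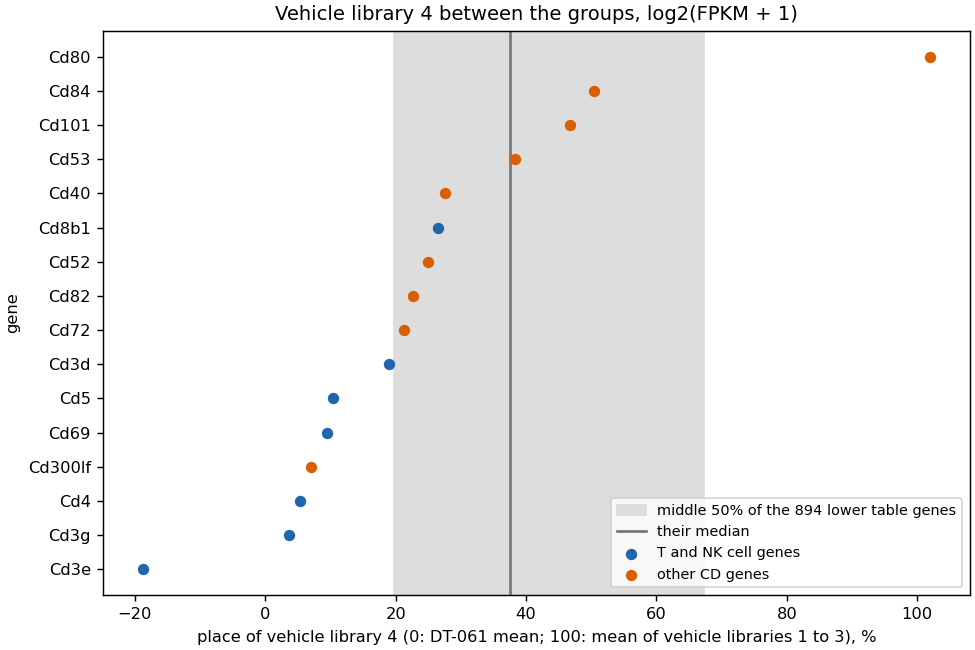
Place of vehicle library 4 between the DT-061 mean (0%) and the mean of vehicle libraries 1 to 3 (100%) for each CD gene; the grey band is the middle 50% of the 894 lower table genes and the grey line their median, 37.5%. The T and NK cell genes lie at or below 26.5%, as do Cd300lf, Cd72, Cd82 and Cd52, and Cd80 lies at 102%.

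Levels were also set against Cd52, as the general leukocyte gene Ptprc was not analysed here. Per 100 FPKM of Cd52, Cd53 stood at 30.7, 40.0, 26.3 and 30.0 FPKM in DT-061 libraries 1 to 4 and at 23.2, 28.6, 25.0 and 39.0 in vehicle libraries 1 to 4. Cd53 and Cd52 thus kept similar proportions while both differed several-fold between libraries. The ratio of group means of this relative level (DT-061 over vehicle) was 1.10 for Cd53, 1.09 for Cd84 and 0.858 for Cd72. For the 7 T and NK cell genes the median ratio was 0.942, or 0.847 with Cd53 as the reference, but it rested on DT-061 library 3. Without that library, where Cd52 was lowest, the medians were 0.596 and 0.481, and all 7 ratios were below 1 with either reference. These ratios share the libraries and the selection of the table, so no test was made.

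Other genes departed further from that proportion. The ratio was 0.407 for Cd300lf and 0.478 for Cd3d, and it was 1.60 for Cd3e, 2.40 for Cd40 and 3.47 for Cd82. Without DT-061 library 3 these became 0.543, 0.472, 0.997, 1.37 and 1.85. Cd3d had 1.49, 2.43, 1.69 and 0.898 FPKM per 100 of Cd52 with DT-061 and 3.61, 2.79, 4.59 and 2.63 with vehicle, with no overlap. Cd82 had 119, 111, 469 and 81.9 against 25.5, 46.2, 50.9 and 103. Relative to Cd52, Cd82 was thus above every vehicle library in DT-061 libraries 1 to 3, and highest in DT-061 library 3, where Cd52 was lowest. Cd80 had 18.2 in vehicle library 4, while vehicle libraries 1 to 3 had 3.26 to 5.97 and the DT-061 libraries 6.10 to 10.6.

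**Figure D4:**
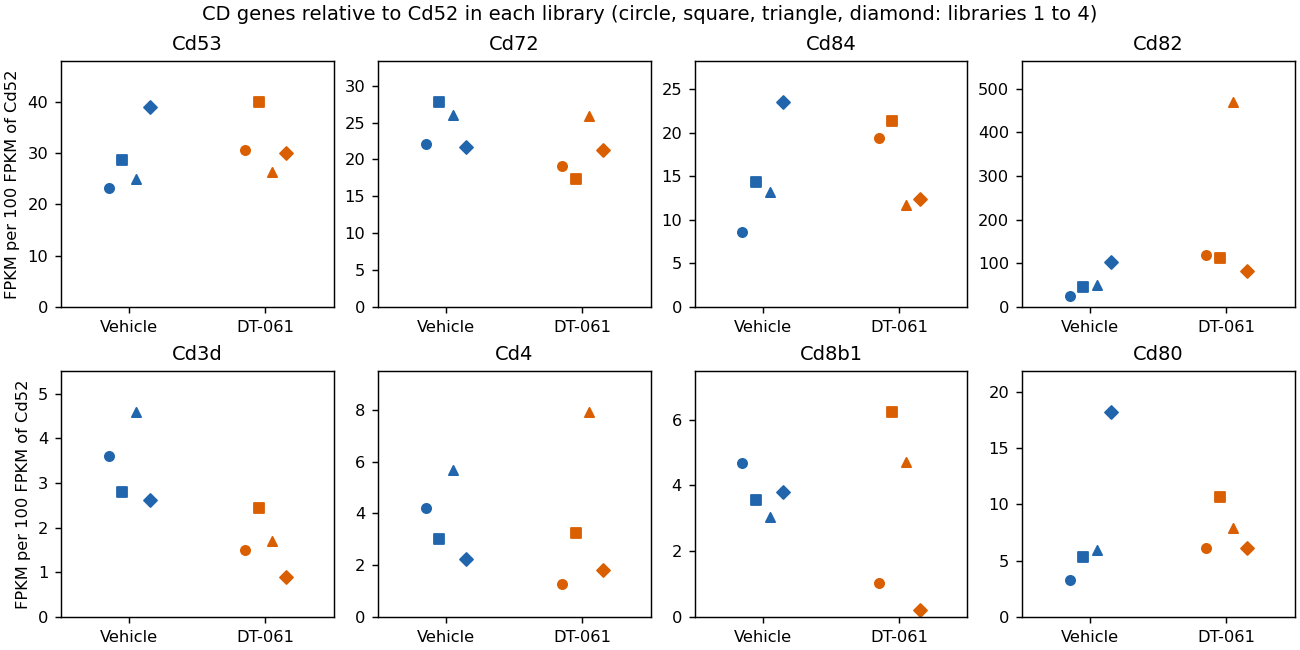
FPKM per 100 FPKM of Cd52 for 8 CD genes in each library, with a linear axis from 0 in each panel. Cd53, Cd72 and Cd84 overlap between the groups, Cd3d does not, and Cd82 reaches 469 in DT-061 library 3.

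Many CD antigens have symbols of another form, and 28 of the 73 leukocyte ones listed were in the table. Of the 28, 25 fell, 2 did not pass and 1, Ncam1, rose, with a median log2 change of -1.16. Of all 1329 table genes, 65.0% fell and 30.4% rose, with a median of -0.58. Ncam1 was highest in DT-061 library 3, at 34.2 FPKM, where most CD genes were lowest. Whether leukocytes were its source was not tested. Of the 28, those with the largest change and a mean of at least 1 FPKM began with Fcgr4, an activating receptor for IgG, at -2.01 ± 0.56. Cxcr4, a chemokine receptor, followed at -1.71 ± 0.46. Next came Selplg, the ligand of P-selectin, at -1.57 ± 0.49, and Slamf7, a SLAM family receptor, at -1.53 ± 0.51 (limma adjusted p of 0.018 to 0.024 for these 4). Selplg and Cxcr4 showed the same library order as Cd52 in part: vehicle library 1 was highest, at 32.1 and 16.2 FPKM, and DT-061 library 3 lowest, at 1.77 and 0.573.

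Of 55 listed CD antigens of the vessel wall or of many tissues, 6 were in the table, 4 lower and 2 higher. The adhesion gene Alcam rose by 0.54 ± 0.13 and the integrin gene Itgb3 by 0.50 ± 0.14 (limma adjusted p of 0.016 and 0.018). Itga6 and Tnfrsf1b had log2 changes of -1.17 ± 0.35 and -1.05 ± 0.33. The endothelial CD antigens Pecam1, Cdh5 and Eng were not analysed here.

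Markers of other cells differed between the groups in both directions. Of 15 contractile smooth muscle genes, 9 were in the table and all 9 rose, with a summed level of 16700 to 25300 FPKM with DT-061 and 9200 to 14400 with vehicle. The fibroblast genes Cthrc1 and Lum (2 of 12 listed) fell, with sums of 74.2 to 130 against 163 to 312 FPKM. The adipocyte gene Cfd (1 of 7) fell, at 72.4 to 330 against 489 to 1390 FPKM, as did Ccl21a (1 of 6 lymphatic and lymph node genes), at 11.0 to 17.4 against 44.5 to 90.3 FPKM. The endothelial gene Robo4 (1 of 14) fell, at 0.576 to 2.51 against 2.39 to 5.00 FPKM. None of the 5 red blood cell genes was in the table, and no listed gene of these cell types was at 0. The part of these cells in the lower CD gene levels was not tested.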

How the data were processed

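Poly-A RNA of ascending aortas was sequenced as paired ends in 8 libraries, 4 per group, per the labels' protocols. The authors deposited FPKM values (fragments per length of transcript and per library size) for 1329 genes that they had selected as differing in this comparison. No source used here gives the selection test, its threshold or the strand setting, so reads of overlapping or antisense genes cannot be told apart. The build mm10 and the tools featureCounts 1.5.0-p3, HISAT2 2.0.5 and StringTie 1.3.3b are named, without roles, per the submitters' processing notes. The 16 genes and all lists were chosen with earlier results of these data known.

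Of the Ensembl IDs, 1328 matched a symbol, and coordinates are those of GENCODE M21 (GRCm38, the same build). Changes were tested with limma 3.58.1 (R 4.3.3, trend and robust options) on log2(FPKM + 1) over all 1329 genes, with Benjamini-Hochberg adjustment and a threshold of 0.05. The fit was tested on simulated data. FPKM steps of low genes gave each library's depth. With that depth, 91.7% to 100% of the values used were whole fragments within 0.03. All 16 members are named, with values in every library. Of these, Cd3e, Cd5, Cd69, Cd300lf and Cd101 lay outside the rule for such values (in each role the 4 largest changes at a mean of at least 1 FPKM) and were chosen after their values were seen. Up to 4 genes per list of other CD antigens are named by the same minimum; any others named were picked with their values in view. The other settings tried were a pseudocount of 0.1, a minimum mean of 1 FPKM, limma without trend and robust, median and quantile scaling, a replicate block and each library left out in turn.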

Additional observations from a re-analysis of the deposited data

Results flagged for a closer look

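Cd8b1 stood at 0.992 FPKM in DT-061 library 2, far above the other 3 libraries of its group, which lay between 0.0479 and 0.147 FPKM. The gap to the nearest of them was 0.895 of the group's whole range, above the critical value of 0.829 for 4 samples. The value came from 22 fragments. Among 32 groups of 4 libraries examined (16 genes in 2 groups), chance gives such a gap in about 1 in 20.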

How the results depend on the processing

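Of the 16 CD genes, 15 also fell with a pseudocount of 0.1 and with limma run without its trend and robust options. With a minimum mean of 1 FPKM, 12 of the 13 genes left fell. In these settings 878, 849 and 674 table genes fell, the last out of 1101 tested. The CD gene count was 9 with median rescaling, 3 with quantile normalization and 7 to 16 with 1 library left out. Table genes that fell numbered 301 with median rescaling, 210 with quantile normalization and 652 to 881 with 1 library left out, and table genes that rose 254 to 351. CD genes without overlap numbered 3 with median rescaling, 1 with quantile normalization and 8 to 16 with 1 library left out. The matching share of the whole table was 48.2% as deposited and 65.9% without vehicle library 4. It was not computed for the other settings, so those counts say nothing particular to the CD genes. These overlap counts, and the removal of DT-061 library 3 and vehicle library 4 together (16 genes fell and 16 did not overlap), were chosen after seeing the data. So was leaving each library out of the median T and NK cell ratio to Cd52, which gave 0.596 to 1.14. Quantile normalization turned Cd101 to 0.12 (limma adjusted p = 0.235) and Cd40 to 0.24 (0.331), and median rescaling turned Cd82 to 0.28 (0.203). Both scalings were computed from the selected genes alone, and the cause was not tested. With the replicate number as a block, 10 CD genes fell, Cd3g, Cd4, Cd40, Cd5 and Cd69 no longer passed (adjusted p of 0.0516 to 0.0739), and 630 table genes fell and 204 rose. Deviations of same-numbered libraries correlated at 0.184, -0.107, -0.0519 and -0.466 across genes. Only 1 of 4 DT-061 and 0 of 4 vehicle libraries correlated best with their own number. No pairing by number was thus seen. With 4 libraries per group and genes selected on this comparison, these values cannot settle whether the numbers mark pairs. Depth limits the low genes most: Cd101, Cd3d and Cd8b1 each had 1 fragment in 1 DT-061 library.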
